A study of Arabidopsis thaliana with 4 samples.

Results

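The UDP-glycosyltransferase (UGT) family was followed on 4 arrays that compared apetala2 with wild-type inflorescences of Arabidopsis thaliana. Members were all gene probes whose platform annotation lists at least 1 symbol made of UGT and a 2-digit family number, among them UGT78D1 and UGT74B1, whose ratio was measured on 3 or 4 arrays. Of 26474 gene probes 55 list such a symbol, and 53 of these were measured often enough, out of 25777 such probes in all. A probe with exactly 1 listed gene was taken to stand for that gene, which gave 18 UGT genes with a probe of their own. The other 35 member probes list 2 to 5 genes each, and their values were kept apart because they cannot be assigned to 1 gene. The 53 probes name 49 UGT genes, of which 31 appear only in company. The annotation leaves 13193 gene probes unnamed, so any UGT genes on those are not covered. The remaining 2 of the 55 probes were left out, because 1 that lists UGT72E2 and UGT72E3 had no measured ratio on any array and 1 that lists UGT84B1, UGT84B2 and another gene had only 2.

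UGT enzymes move a sugar from a UDP-sugar onto a small molecule, which usually makes that molecule more soluble, less reactive and fit for storage in the vacuole. In plants the family decorates flavonols and anthocyanins, takes part in glucosinolate synthesis, and inactivates or stores hormones such as auxin, cytokinin, abscisic acid and salicylic acid. Flowers are rich in its flavonoid products, since petals, anthers and pollen coats accumulate glycosylated flavonols. Many of its genes lie in tandem arrays of near-identical copies, so that a probe may respond to several of them.

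Each array was hybridised with RNA of apetala2 inflorescences in one channel and of wild-type inflorescences in the other, and the deposited value of a probe is the log2 ratio of the channels after the authors' normalization. APETALA2 is a transcription factor that specifies sepals and petals, and the mutant allele is not given in the labels. The labels give apetala2 as channel 1 on sets 1 and 3 and as channel 2 on sets 2 and 4, and wild type as the opposite channel. Neither the dyes nor a separate plant source for each set is stated, so p-values speak for these 4 arrays alone, and the spread between them may be technical. Each standard error (SE) and p-value is moderated, which means that the spread of a probe over the arrays is drawn toward that of all probes tested. Between 25741 and 25841 gene probes per array had a measured ratio.

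The direction of the ratio is unsettled, for 2 reasons. The numerator is not stated, and over all gene probes sets that share a labelled channel correlated below 0 (r = -0.227 between sets 1 and 3 and r = -0.119 between sets 2 and 4), whereas r was 0.313 between sets 1 and 4 and 0.307 between sets 2 and 3. Within each swapped pair the correlation was below 0 as well, at r = -0.479 for sets 1 and 2 and r = -0.474 for sets 3 and 4. Over all gene probes the doubt thus concerns how the 2 pairs relate and not the swap inside a pair. Among the 53 UGT probes r was -0.302 for sets 1 and 2 and -0.223 for sets 3 and 4. The 18 with 1 gene had -0.710 and 0.190, so the swap did not show in their second pair. For sets 1 and 4 and sets 2 and 3 these 18 had 0.170 and -0.217. Means are therefore given in 2 orientations, and the array values in the labelled one. The labelled orientation turns the sign of sets 2 and 4, so that a positive value would mean a higher level in apetala2 than in wild type provided that channel 1 is on top of the ratio and that the labels hold. The other orientation turns sets 2 and 3. It has the same sets 1 and 2 as the labelled one and sets 3 and 4 with the opposite sign. This second orientation was chosen after the correlations of these same arrays had been seen. Its p-values and calls therefore rest on the values that chose its signs and are not an independent test. No genotype direction is given for any UGT gene, and "negative" and "positive" refer to the side of 0 alone. Ratios carry no expression level, so the labelled tissue could not be checked by the abundance of its markers. In such whole inflorescences, a change in the number of cells of a type and a change in RNA per cell cannot be told apart.

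No UGT probe passed in either orientation at an adjusted p under 0.05 (limma with Benjamini-Hochberg adjustment over all 25777 probes). In the labelled orientation this matched the array as a whole, where 0 probes passed (0%), and the lowest adjusted p of a UGT probe was 0.738. With sets 2 and 3 turned 528 probes passed, which is 2.05% of all, and 0 of the 53 UGT probes did, with a lowest adjusted p of 0.181. At an unadjusted p under 0.05 there were 12 of 53 UGT probes in the labelled orientation (22.6%), against 6.55% of all probes, and 8 of 53 with sets 2 and 3 turned (15.1%), against 13.1%.

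The family lay mostly on the negative side in the labelled orientation. Of the 53 probes 38 had a mean below 0 (71.7%), against 46.6% of all probes, and their median log2 ratio was -0.15, against 0.02 for all probes. By array the median of the UGT probes was -0.13, -0.24, -0.02 and -0.29 on sets 1 to 4, so it was near 0 on set 3. Of 51 probes with 4 ratios 17 had the same sign on all 4 arrays (33.3%, against 16.3% of all), 16 of them negative and 1 positive. Of the 12 probes at an unadjusted p under 0.05, 11 were negative. Means of at least 1 in size occurred in 3 of 53 UGT probes (5.66%), against 1.63% of all.

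These counts overstate the number of independent observations. Joined wherever they list a gene in common, the 53 probes form 27 groups, of which 12 hold a single probe, and the 12 probes at an unadjusted p under 0.05 come from 9 groups. Averaged within groups, 16 of the 27 lay below 0 (59.3%), with a median of -0.12. The count of 12 was also unstable to the choice of arrays: it was 3, 4, 7 and 5 without sets 1, 2, 3 and 4, against 5.05%, 4.97%, 6.01% and 5.11% of all probes, and 2 (1.92% of all) after averaging to 2 replicates, 1 from the first 2 sets and 1 from the others.

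With sets 2 and 3 turned a mean below 0 occurred in 25 of 53 UGT probes (47.2%), against 44.6% of all probes, and the median was 0.03 in the family and 0.03 over all probes. That count joins 12 of the 18 probes with 1 gene (66.7%, against 43.4% of all such probes) and 13 of the 35 with several (37.1%, against 44.0%). Of 51 probes 12 had 1 sign on all 4 arrays (23.5%, against 23.0% of all), 8 negative and 4 positive. A mean of at least 1 in size was found for 2 of 53 probes (3.77%, against 4.40%). The spread between arrays was wider in the family than over all probes in both orientations. The median SD over arrays was 0.50 for UGT probes and 0.32 for all probes in the labelled orientation, and 0.46 and 0.31 with sets 2 and 3 turned.

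**Figure D1:**
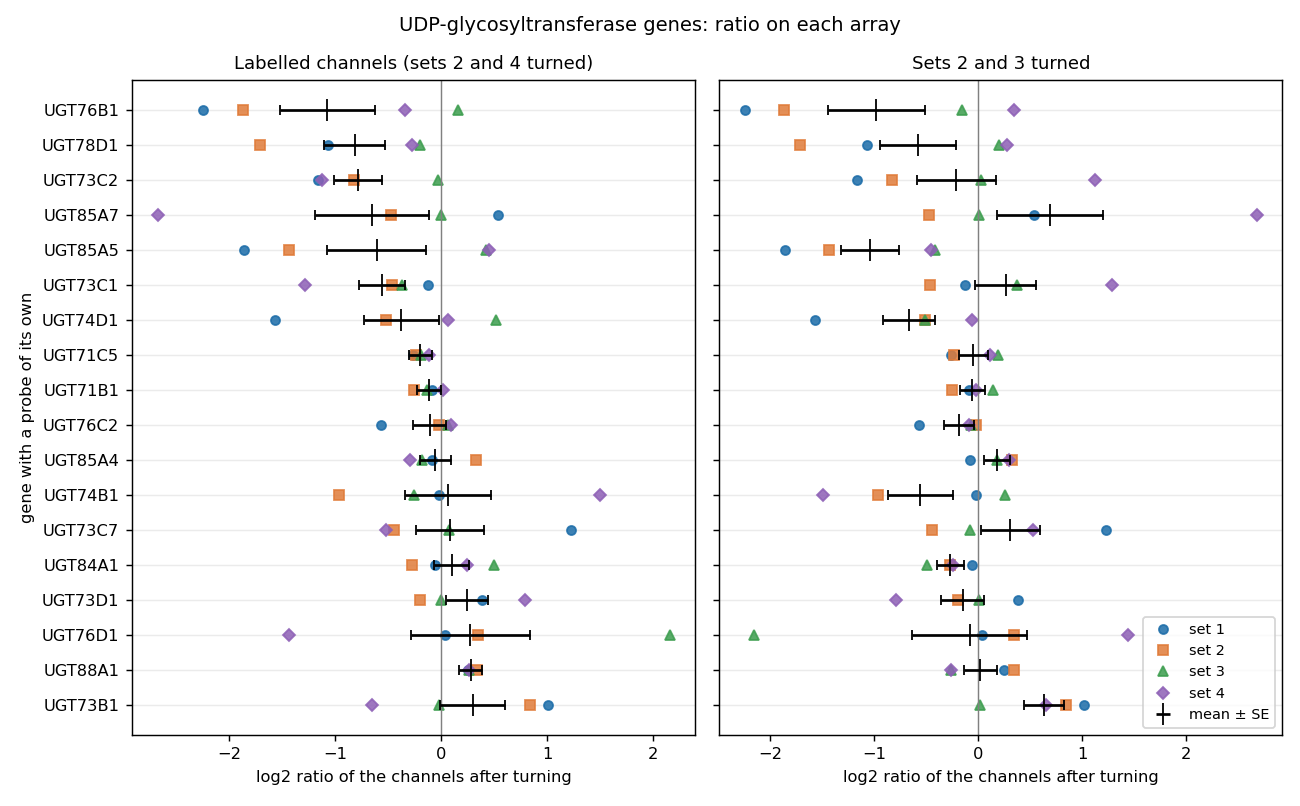
Log2 ratio on each of the 4 arrays (coloured points, set 1 to set 4) with the mean and its moderated SE (black) for the 18 UGT genes with a probe of their own, ordered by the labelled mean, in the labelled orientation (left) and with sets 2 and 3 turned (right). UGT76B1 (mean -1.07) stands at the negative end on the left, where its points of sets 1 and 2 lie apart from those of sets 3 and 4, and UGT88A1 has the 4 closest points.

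Of the flavonoid glycosyltransferases, 2 members have a probe of their own. UGT78D1 transfers rhamnose to the 3-hydroxyl of flavonols, a step in the synthesis of the main flavonol glycosides of flowers. Its log2 ratios in the labelled orientation were -1.07, -1.71, -0.20 and -0.28 on sets 1 to 4, all negative and large on the first pair of arrays alone. The mean was -0.81 ± 0.29 (moderated SE, n = 4 arrays, limma adjusted p = 0.760), or 1.76-fold, which did not pass, and with sets 2 and 3 turned it was -0.58 ± 0.37 (limma adjusted p = 0.563). A probe that lists UGT78D1 with UGT78D2 and UGT78D3, which add glucose and arabinose to flavonoids, had -0.08, -0.22, -0.20 and -0.73, a labelled mean of -0.31 ± 0.15 (limma adjusted p = 0.760) and one of 0.16 ± 0.19 with sets 2 and 3 turned. Here too the sign was negative on every array, but the largest ratio was on set 4 rather than on sets 1 and 2. A probe listing UGT78D2, UGT78D3 and a further gene without UGT78D1 was within 0.03 of 0 on sets 1 to 3 and at -0.57 on set 4, with means of -0.14 ± 0.15 and 0.13 ± 0.15 in the 2 orientations.

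UGT73B1, an enzyme with activity on flavonoids, differed from UGT78D1 in sign. It had 1.01, 0.84, -0.02 and -0.65 in the labelled orientation, positive on sets 1 and 2 and negative on sets 3 and 4. This made its labelled mean 0.30 ± 0.31 (limma adjusted p = 0.853) and 0.63 ± 0.19 with sets 2 and 3 turned (limma adjusted p = 0.233), where all 4 ratios were positive. The probe that lists its close relatives UGT73B2 and UGT73B3 had -1.50, -0.54, 0.40 and -0.28, with means of -0.48 ± 0.31 and -0.54 ± 0.28 in the 2 orientations, opposite in sign to those of UGT73B1.

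UGT74B1 glucosylates thiohydroximates, the step before the last in the formation of the glucosinolate core. Its labelled ratios were -0.02, -0.97, -0.25 and 1.50, which span both sides of 0. The mean was 0.06 ± 0.40 in the labelled orientation (SE, n = 4, limma adjusted p = 0.982) and -0.56 ± 0.31 with sets 2 and 3 turned (limma adjusted p = 0.512). Neither orientation gave it 1 sign on all arrays, and without set 4 its labelled mean was -0.41.

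The UGT genes that act on hormones had ratios of different sizes. UGT74D1, which glucosylates auxins, had -1.57, -0.52, 0.52 and 0.06 in the labelled orientation and so was negative on the first pair of arrays and positive on the second. All its ratios were negative with sets 2 and 3 turned, with a mean of -0.67 ± 0.25 (SE, n = 4, limma adjusted p = 0.350), against -0.38 ± 0.35 with the labelled channels. The probe listing UGT84B1, whose enzyme conjugates indole-3-acetic acid, and UGT84B2 had 3 ratios, of 1.60, -2.70 and 0.05 on sets 1 to 3, with means of -0.35 ± 0.87 and -0.38 ± 0.82 in the 2 orientations, and these ratios are too far apart to show a direction.

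Cytokinin is glucosylated by UGT76C2, at the ring nitrogens, and by UGT73C1, at the side chain in vitro. UGT76C2 had -0.57, -0.02, 0.07 and 0.09 in the labelled orientation, with a mean of -0.11 ± 0.16 (SE, n = 4, limma adjusted p = 0.906), and set 1 stood apart from the other sets. Its mean was -0.19 ± 0.14 with sets 2 and 3 turned, where all 4 ratios were negative. UGT73C1 had -0.13, -0.47, -0.37 and -1.28, negative on all arrays, with a mean of -0.56 ± 0.22 (SE, n = 4, limma adjusted p = 0.760) and one of 0.26 ± 0.29 with sets 2 and 3 turned. UGT71C5, which forms the glucose ester of abscisic acid, had small ratios of -0.26, -0.23, -0.19 and -0.11 and a mean of -0.20 ± 0.11 (SE, n = 4, limma adjusted p = 0.765). Its 4 labelled ratios were thus of 1 sign and lay within a narrow range, yet the gene did not pass. The moderated SE of 0.11 rests in part on the spread of all probes. With sets 2 and 3 turned the mean was -0.05 ± 0.14. A probe listing UGT71C5 with UGT71C4 had 0.30, -0.06, -0.37 and -0.27, positive on set 1. Its means were -0.10 ± 0.15 and 0.22 ± 0.13 in the 2 orientations.

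UGT76B1 had the largest labelled mean among the 18 genes. The enzyme glucosylates isoleucic acid, salicylic acid and N-hydroxypipecolic acid and so tempers defence. Its labelled ratios were -2.25, -1.87, 0.16 and -0.34, large on sets 1 and 2 and near 0 on sets 3 and 4. The mean was -1.07 ± 0.45 (SE, n = 4, limma adjusted p = 0.760), which is 2.11-fold, and -0.98 ± 0.47 with sets 2 and 3 turned (limma adjusted p = 0.449). Over all probes 1.26% had a larger labelled mean in size. A probe listing UGT76B1 with UGT76C1 and UGT76C2 had labelled ratios of 1.08, 0.03, -0.06 and -2.23. Its means were -0.29 ± 0.53 and 0.85 ± 0.39 in the 2 orientations. On sets 1, 2 and 3 and in the turned mean its sign was thus opposite to that of the probe of UGT76B1 alone, though it was near 0 on sets 2 and 3. UGT76D1, which acts on dihydroxybenzoic acids, had 0.04, 0.35, 2.16 and -1.44, with means of 0.28 ± 0.56 and -0.08 ± 0.55 in the 2 orientations. As deposited, before any sign was turned, UGT76D1 had 0.04, -0.35, 2.16 and 1.44, and the mean of these unturned ratios, at 0.82, was larger than either oriented mean. The same held for 10 of 51 UGT probes (19.6%), against 25.2% of all probes.

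UGT84A1, which forms glucose esters of hydroxycinnamic acids, had -0.06, -0.27, 0.50 and 0.24. Its mean was 0.10 ± 0.16 with the labelled channels and -0.27 ± 0.13 with sets 2 and 3 turned (SE, n = 4, limma adjusted p = 0.446), where all ratios were negative. The probe listing its neighbours UGT84A3 and UGT84A4 had a labelled mean of 0.11 ± 0.20 and one of 0.13 ± 0.19 with sets 2 and 3 turned. Probes listing UGT72E genes, which glucosylate monolignols, had labelled means of 0.38 ± 0.22 and -0.09 ± 0.20 and turned means of 0.39 ± 0.22 and -0.25 ± 0.16, and neither passed.

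The UGT73C and UGT85A subfamilies hold several of the larger ratios. UGT73C2 had -1.17, -0.83, -0.03 and -1.12 in the labelled orientation, negative on all arrays, with a mean of -0.79 ± 0.23 (SE, n = 4, limma adjusted p = 0.738), against -0.21 ± 0.38 with sets 2 and 3 turned. It shares with 1 probe of several genes the lowest labelled adjusted p of the family. Its direct neighbour on chromosome 2, UGT73C1, was also negative on all 4 arrays, as given above. A probe listing UGT73C2 with 3 further genes had -0.98, -0.11, -1.29 and -2.58, with a labelled mean of -1.24 ± 0.40 (limma adjusted p = 0.760), the largest of the 53 in that orientation. Its mean was 0.70 ± 0.57 with sets 2 and 3 turned, where the largest of the 53 was the -1.09 ± 0.51 of a probe listing UGT73B4 and UGT73B5. One listing UGT73C7 with AT2G36770 and AT2G36780, both also on the probe just described, had -1.49, -0.21, -0.40 and -1.44 and a labelled mean of -0.89 ± 0.27 (limma adjusted p = 0.760), against 0.03 ± 0.45 with sets 2 and 3 turned. UGT73C7 alone had 1.22, -0.45, 0.08 and -0.53, with means of 0.08 ± 0.32 and 0.31 ± 0.28 in the 2 orientations. On set 1 it lay on the opposite side from the probe that lists it in company. UGT73D1, the neighbour of UGT73C7 on chromosome 3, had means of 0.24 ± 0.20 and -0.15 ± 0.21.

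UGT85A5 had the largest mean of the 18 genes with sets 2 and 3 turned. Its labelled ratios of -1.86, -1.44, 0.42 and 0.45 gave -1.04 ± 0.28 in that orientation (SE, n = 4, limma adjusted p = 0.181), which is 2.06-fold with all ratios negative, and -0.61 ± 0.47 with the labelled channels. The probe that lists it with UGT85A2 and UGT85A7 had -1.68, -0.84, 1.15 and -0.43, with a labelled mean of -0.45 ± 0.46 and one of -0.81 ± 0.34 with sets 2 and 3 turned. UGT85A7, separated from UGT85A5 by 1 gene on chromosome 1, behaved otherwise, with 0.54, -0.47, -0.01 and -2.68. Its means of -0.65 ± 0.54 and 0.69 ± 0.51 rest on set 4, without which they are 0.02 in both orientations. UGT85A4 stayed within 0.33 of 0 on all arrays, with means of -0.06 ± 0.15 and 0.18 ± 0.13.

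UGT88A1 gave the most even ratios of the family, 0.25, 0.34, 0.26 and 0.26 in the labelled orientation. In that orientation it was the 1 UGT probe positive on all 4 arrays, with a mean of 0.28 ± 0.11 (SE, n = 4, limma adjusted p = 0.760), or 1.21-fold. Its mean was 0.02 ± 0.16 (limma adjusted p = 0.972) with sets 2 and 3 turned, where 2 of its ratios were negative. A probe listing UGT88A1 with AT1G01390, UGT72B3 and GT72B1 was not even, with labelled ratios of 0.93, -0.17, 0.03 and -1.04. The means of that probe were -0.06 ± 0.32 and 0.44 ± 0.25 in the 2 orientations. UGT71B1, the last of the 18, had means of -0.12 ± 0.11 and -0.06 ± 0.12.

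**Figure D2:**
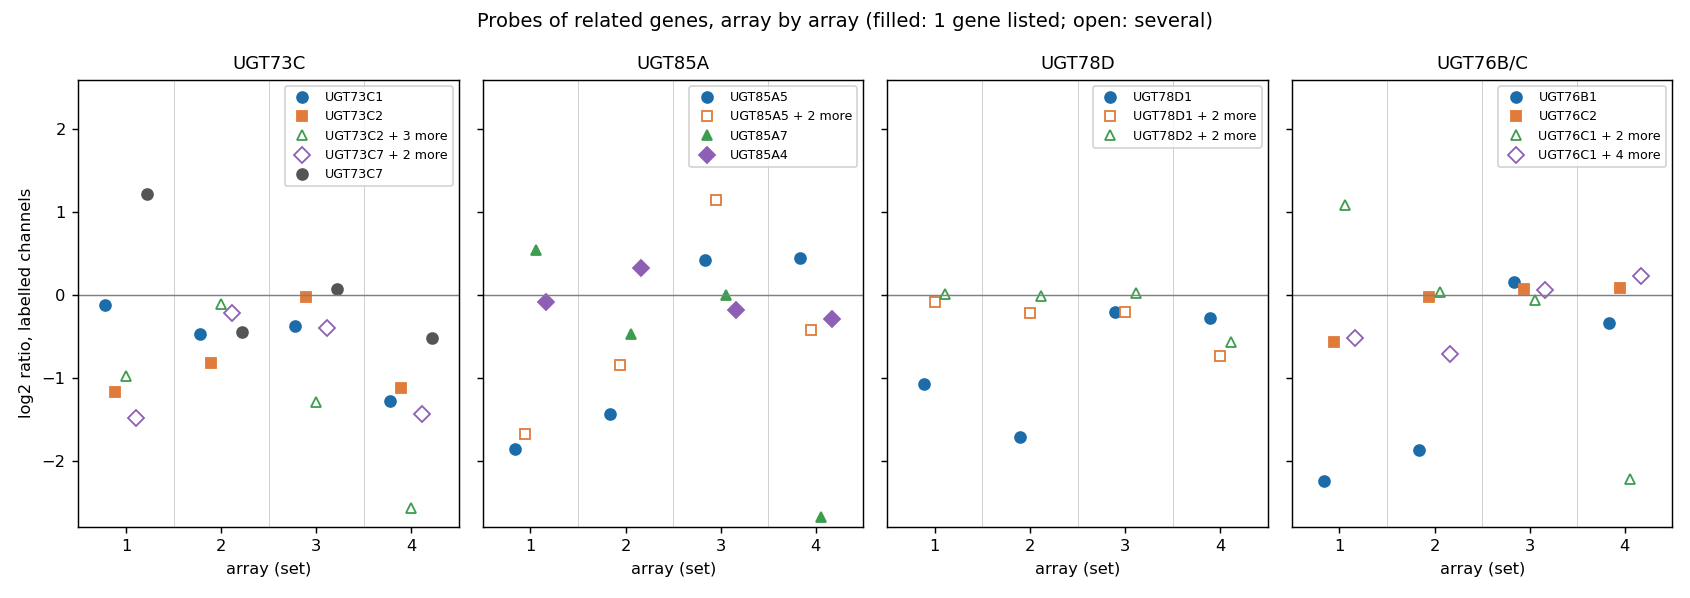
Log2 ratios in the labelled orientation on sets 1 to 4 for probes of related UGT genes in 4 panels, with filled symbols for probes listing 1 gene and open symbols for probes listing several. In the UGT73C panel most points lie below 0 on every array apart from those of UGT73C7, and in the UGT85A panel UGT85A5 and the probe listing it with 2 more genes are lowest on set 1, whereas UGT85A7 is lowest on set 4 (-2.68).

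The probes that list several genes and those with 1 differed in their share below 0, in opposite ways in the 2 orientations. In the labelled orientation 27 of 35 had a mean below 0 (77.1%), against 47.5% of all probes with several listed genes, and their median was -0.20. Of the 18 genes with a probe of their own 11 were below 0 (61.1%), against 44.4% of all probes with 1 listed gene, with a median of -0.11. The medians were, with sets 2 and 3 turned, 0.10 for the 35 and -0.12 for the 18, with the shares below 0 given above. The difference between the 2 kinds was not tested. At an unadjusted p under 0.05 in the labelled orientation were 8 of 35 (against 6.87% of all probes of that kind) and 4 of 18 (against 5.25%), and those 4 genes were UGT73C1, UGT73C2, UGT78D1 and UGT88A1. The other orientation had 5 of 35 (against 14.0%) and 3 of 18 (against 11.5%), namely UGT73B1, UGT74D1 and UGT85A5. Of the 35 probes 15 list UGT symbols alone, and 13 of these list 1 subfamily. The pair of probes that both list AT2G30150 and UGT87A2, an enzyme known to influence flowering time, had labelled means of -0.53 ± 0.17 and -0.39 ± 0.14, with 4 negative ratios each, and turned means of 0.30 ± 0.24 and -0.20 ± 0.20. The pair listing UGT76E11, UGT76E12 and AT3G46666 had -1.06 ± 0.29 and -0.33 ± 0.30, and 0.57 ± 0.46 and 0.64 ± 0.18 with sets 2 and 3 turned. The pair listing UGT73B4 and UGT73B5 had 0.40 ± 0.27 (n = 3, since set 2 was at the limit of the scale) and -0.23 ± 0.70, against 0.28 ± 0.29 and -1.09 ± 0.51 in the other orientation. The pair listing UGT71D1 and AT2G29710 had -0.09 ± 0.19 and 0.19 ± 0.17, against -0.07 ± 0.19 and 0.26 ± 0.15. Probes with identical gene lists thus lay on the same side in 2 of these 4 pairs with the labelled channels and in 1 with sets 2 and 3 turned.

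The family is commonly divided into phylogenetic groups, which are sets of enzymes related in sequence. In the labelled orientation the median of group D, the UGT73 enzymes, was -0.36 over 10 probes, with values from -1.24 to 0.40, and that of group G, the UGT85 enzymes, was -0.53 over 4 probes, all below 0. In group H, the UGT76 enzymes, 7 of 9 probes lay below 0 and the median was -0.24. Group E, which holds UGT71, UGT72 and UGT88 and 17 of the probes, had a median of -0.10, and 12 of its probes lay below 0. The 3 probes of group F, the UGT78 enzymes, were all below 0. Among groups with more than 1 probe, group L alone had a median above 0, at 0.06, with 2 of 5 probes below 0. It holds the UGT74 and UGT84 enzymes, which form mostly glucose esters. In the other orientation group L had a median of -0.38 with 4 of 5 probes below 0, and group G one of -0.32, while the medians of D, E and H were 0.15, 0.02 and 0.05. Over all probes 46.6% of the labelled means and 44.6% of the turned means lay below 0. Probes of a group often list a gene in common, so these counts are not of independent observations. Differences between groups were not tested.

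**Figure D3:**
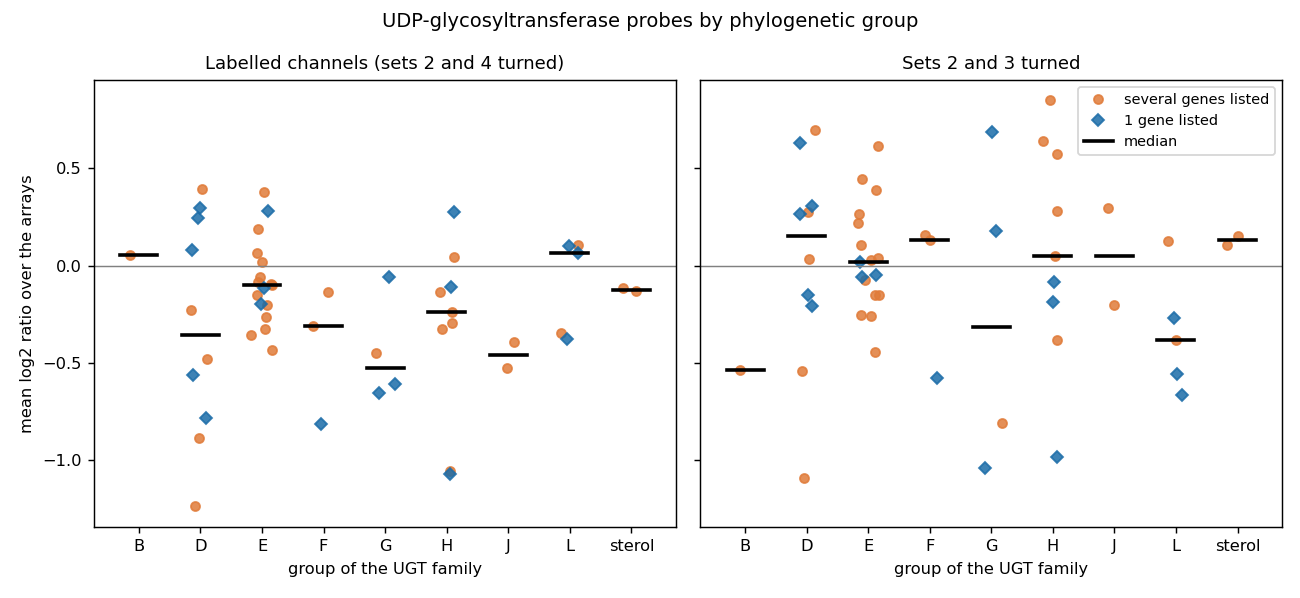
Mean log2 ratio of each of the 53 UGT probes by phylogenetic group (letters, and the sterol glucosyltransferases), in the labelled orientation (left) and with sets 2 and 3 turned (right); diamonds are probes listing 1 gene, circles probes listing several, and bars medians. On the left the medians of groups D, E, F, G, H and J and of the sterol enzymes lie below 0, and on the right those of G and L and the single probe of B.

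The mean in either orientation is made of 2 parts, the mean of set 1 and turned set 2 and the mean of set 3 and turned set 4, which the labelled orientation adds and the other subtracts. Several UGT genes had a mean much larger in size on the first pair than on the second, a contrast that was not tested. UGT76B1 had -2.06 on the first pair and -0.09 on the second, UGT78D1 had -1.39 and -0.24, UGT85A5 had -1.65 and 0.44, and UGT74D1 had -1.04 and 0.29. These 4 are the genes among the 18 with a first-pair mean of at least 1 in size (22.2%), against 7.42% of all probes, and UGT73C2 was just short of it. Of the probes with several genes 3 of 33 reached it (9.09%), which makes 7 of 51 in all (13.7%). On the second pair UGT85A7 alone reached that size, at -1.34 (5.56%, against 5.65% of all), and it rests on set 4, while 3 of the 33 with several genes did (9.09%). Over the 51 probes with 4 ratios, 34 lay below 0 on the first pair (66.7%, against 43.3% of all) and 35 on the second (68.6%, against 52.7%). The 2 pair means had opposite signs in 27 of 51 probes (52.9%), against 55.0% of all.

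**Figure D4:**
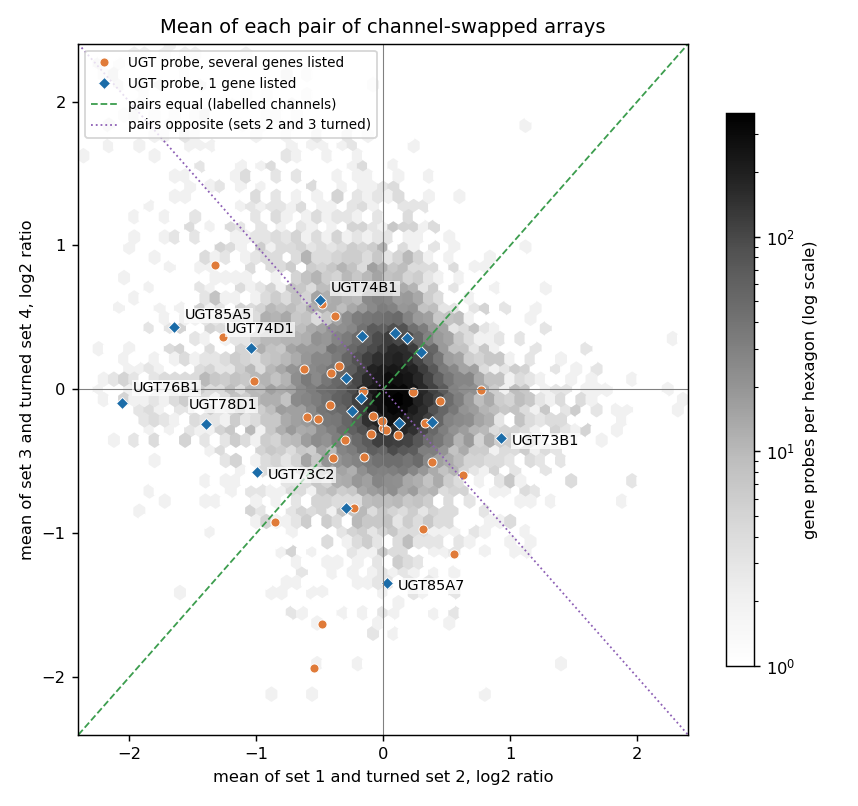
Mean of set 1 and turned set 2 (x axis) against the mean of set 3 and turned set 4 (y axis), both as log2 ratios, for UGT probes listing 1 gene (blue diamonds) and several (orange circles) over all gene probes within the axes (grey hexagons, log scale). UGT76B1, UGT85A5, UGT78D1 and UGT74D1 lie far to the left at second-pair means between -0.24 and 0.44. UGT85A7 is the lowest of the blue diamonds, near 0 on the x axis, with some orange circles lower still.

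Some markers of floral organs, mostly of anthers and pollen, also had large ratios on these pairs of arrays. Of 17 anther and tapetum genes 4 were listed, on 8 probes. Over these probes the median was -1.30 on the first pair, with 6 below 0, and 0.02 on the second, with 4 below 0. The list was mixed. The probes of ATA20, expressed in anthers, had first-pair means of -2.01 and -1.25 and second-pair means of 0.11 and -0.07, and those of ATA27, likewise of anthers, had -2.34 and 0.31 and then 0.20 and -0.18. EMS1, a receptor kinase of the early anther, had 0.93 and -0.37 on the 2 pairs. The 3 probes listing RPG1, a sugar transporter needed for the pollen wall, had -1.36, -1.24 and -2.56 on the first pair and -0.95, 0.51 and 1.58 on the second. The last of these, which lists several genes, passed with sets 2 and 3 turned, at -2.07 ± 0.25 (limma adjusted p = 0.0194). Of 18 mature pollen genes 7 were listed, on 11 probes, some of which list more than 1 of them. Their median was -1.77 on the first pair and 2.35 on the second, over the 9 probes measured there. Of the 11 probes 8 passed with sets 2 and 3 turned, all negative, against 2.05% of all probes. Of the 11 probes 10 list several genes, several of those that passed list the same gene (PPME1), and 1 listing AGL66 had a turned mean of 0.36 ± 0.33. Of 4 petal genes BPE alone was listed, on 2 probes, with -1.52 and 0.24 on the first pair and 0.29 and 0.11 on the second. Of 8 carpel and ovule genes 3 were listed, on 8 probes with medians of 0.22 and -0.12 on the 2 pairs. Among these probes 1, listing SPT, passed with sets 2 and 3 turned, on the positive side. The part of these organs in the UGT ratios was not tested.

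Some genes of the family are named on the array by other symbols and fall outside the rule. UF3GT, whose synonym is UGT79B1, adds xylose to anthocyanins. On sets 1 to 4 it was deposited at -1.48, 1.30, 0.92 and -0.99, and turning sets 2 and 3 makes all 4 negative. With sets 2 and 3 turned its mean was -1.17 ± 0.14 (SE, n = 4, limma adjusted p = 0.0217), or 2.25-fold, so it passed there, whereas with the labelled channels it had -0.22 ± 0.52 (limma adjusted p = 0.952). The call was lost when any 1 array was left out, with limma adjusted p from 0.0681 to 0.0883. A probe listing UF3GT with AT5G54010, whose synonym is UGT79B6, the pollen flavonol glucosyltransferase, had -0.57 ± 0.25 in the same orientation. One listing AT5G54010 with 2 further genes had -2.25 ± 1.03, and neither passed. The latter was deposited at -0.45, 6.50, 1.54 and -0.53 on sets 1 to 4. Its mean thus rests mostly on set 2, where the ratio lies close to the limit of the scale. GT72B1, whose synonym is UGT72B1, had a labelled mean of -0.26 ± 0.13 and one of -0.07 ± 0.16 with sets 2 and 3 turned, and did not pass.

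Few genes of the surrounding pathways could be set beside the UGT values. Of 31 flavonoid enzymes, transporters and regulators, 2 had a probe that lists them and none passed in either orientation. CHIL, a helper of chalcone synthase, had a labelled mean of -0.31 ± 0.15 and one of 0.11 ± 0.19 with sets 2 and 3 turned. That listing BAN, the anthocyanidin reductase of seed coats, among several genes had 1.19 ± 0.63 and 1.34 ± 0.55. Of 31 symbols of the glucosinolate pathway 3 had a probe of their own, again with none passing in either orientation. AOP3, which modifies side chains, had a labelled mean of -1.04 ± 0.22 (SE, n = 4, limma adjusted p = 0.679), against -0.21 ± 0.32 on a second probe that lists it with other genes, and GSTU20, a glutathione transferase linked to the pathway, had -0.57 ± 0.17 (limma adjusted p = 0.748). BCAT4, of methionine chain elongation, had -0.23 ± 0.15. With sets 2 and 3 turned these 3 genes had -0.29 ± 0.47, -0.15 ± 0.28 and 0.11 ± 0.17, beside the 0.06 and -0.56 of UGT74B1 in the 2 orientations. Of the sinapate and lignin genes 3 were listed, on 5 probes with labelled means from -0.15 to 0.23 and turned means from -0.23 to 0.49, none of which passed in either orientation.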

How the data were processed

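Per the labels, the deposited values are log2 ratios of 2-colour Operon arrays, which the authors processed and normalized as in an earlier publication. The scanner, the background correction, any filter and the numerator were not named in the sources used here, and no signal intensity was used, so the number of arrays (4) limits the precision. Values within 0.0001 of the limit of the scale (6.64 in size, a ratio of 100) were treated as not measured, and control spots were left out. From these ratios, an intercept was fitted with limma 3.58.1 (R 4.3.3; lmFit and eBayes) over all 25777 gene probes measured on at least 3 arrays and tested two-sided against 0. Benjamini-Hochberg adjustment ran over all probes, with a threshold of 0.05. The fit was tested on simulated data.

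Genes were named from the platform annotation (5784 probes list 1 gene, 7497 several, 13193 are unnamed here), and all 18 symbols of UGT probes with 1 gene matched the TAIR10.1 gene table. Neighbours come from that table. No coordinates are printed, since the build of the probe design is not given. All 18 UGT genes with their own probe were named, with 4 array values for UGT78D1, UGT74B1, the 6 largest means in each orientation and genes with a known substrate. Members, lists, rules and both orientations were chosen with earlier results of these data known. Alternatives left out each array, kept limit values, centred arrays, added a channel term, required 4 arrays, averaged sets 1 and 2 and sets 3 and 4, used robust moderation, or kept probes with 1 gene.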

Additional observations from a re-analysis of the deposited data

Results flagged for a closer look

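Of 102 sets of 4 UGT array values examined over both orientations, Dixon's test set 1 array apart in 6, and chance would do so in about 1 of 20. UGT76C2 had -0.57 on set 1, against -0.02 to 0.09 on the others in the labelled orientation and against -0.09 to -0.02 with sets 2 and 3 turned. UGT88A1 had 0.34 on set 2, against 0.25 to 0.26 with the labelled channels, a gap that is small in absolute terms. The probe listing UGT78D2, UGT78D3 and AT5G17040 had -0.57 on set 4, against -0.01 to 0.03 with the labelled channels, and 0.57 on that set, against -0.03 to 0.01, with sets 2 and 3 turned. A probe listing UGT71B5 and AT4G15260 had -0.57 on set 4, against -0.13 to -0.04 with the labelled channels.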

How the results depend on the processing

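No UGT probe passed under any of the alternatives in either orientation, with lowest adjusted p from 0.710 to 0.99988 with the labelled channels and from 0.0862 to 0.319 with sets 2 and 3 turned. The counts of UGT probes at an unadjusted p under 0.05 moved more. With the labelled channels the 12 (6.55% of all probes) became 7 with a channel term (4.72% of all), 2 with the sets averaged to 2 replicates (1.92%), 4 over the 18 probes with 1 gene, and 3 to 7 without 1 array (4.97% to 6.01%). With sets 2 and 3 turned the 8 of 53 (15.1%, against 13.1% of all) became 3 over the probes with 1 gene and 4 to 10 without 1 array, where 10.9% to 12.2% of all probes did. Over the 18 probes with 1 gene, 11 and 12 lay below 0. The labelled family median stayed between -0.20 and -0.11. Over all probes the 528 calls became 158 with limit values kept, 273 with a channel term, 0 with the sets averaged and 94 to 441 without 1 array. Each ratio already pairs apetala2 with wild type on the same array, so no separate paired test was run.

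Leaving out 1 array turned the sign of these uncalled labelled means, given as lowest and highest: UGT73C7 -0.30 and 0.28, UGT74B1 -0.41 and 0.41, UGT74D1 -0.67 and 0.020, UGT76C2 -0.17 and 0.045, UGT76D1 -0.35 and 0.85, UGT84A1 -0.029 and 0.23, UGT85A4 -0.19 and 0.020, UGT85A7 -1.05 and 0.020, and UF3GT -0.62 and 0.20. With sets 2 and 3 turned it did so for UGT71B1 (-0.12 and 0.0098), UGT71C5 (-0.13 and 0.022), UGT73C1 (-0.075 and 0.51), UGT73C2 (-0.66 and 0.11), UGT73C7 (-0.00055 and 0.56), UGT73D1 (-0.33 and 0.062), UGT76D1 (-0.59 and 0.61) and UGT88A1 (-0.091 and 0.11), the last also with arrays centred (-0.0081). The UF3GT call was also lost with limit values kept (adjusted p = 0.0622), a channel term (0.0611) and averaged sets (0.278). The causes were not tested.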
